A study of Mus musculus with 9 samples.

Results

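The 10 genes described here encode proteases and protease inhibitors of the extracellular matrix that myeloid cells express. They comprise 6 matrix metalloproteinases (Mmp8, Mmp9, Mmp12, Mmp13, Mmp14 and Mmp19), the related membrane protease Adam8 and 3 tissue inhibitors of metalloproteinases (Timp1, Timp2 and Timp3). Members were taken by gene name from the deposited count table, which holds 57238 entries, of which 15028 carried enough reads to be tested. All 10 members passed that filter.

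The libraries came from bone marrow-derived dendritic cells (BMDCs) of wild-type C57BL/6 mice, grown for 6 days with 20 ng/ml GM-CSF, the cytokine that drives marrow progenitors toward dendritic cells and macrophages. CTR cells received no exosomes, NE cells received exosomes of NIH 3T3 fibroblasts, a non-cancerous line, and TDE cells received tumor-derived exosomes, in both cases for 24 h. The labels do not name the tumor line that released the exosomes. Each group had 3 RNA-seq libraries, and nothing says that they came from separate mice or cultures, so every p-value measures only the spread between these libraries. The comparisons ask what tumor exosomes do to BMDCs, and the NE cells show what exosomes of a non-cancerous cell do.

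Matrix metalloproteinases (MMPs) are zinc enzymes that are made as inactive precursors and cut collagens, elastin, gelatin and other matrix proteins once their propeptide is removed. TIMPs bind the active site of MMPs and block it, and Timp2 also serves as the adaptor through which Mmp14 activates the precursor of Mmp2. Dendritic cells and macrophages use these proteases to cross basement membranes and tissue on the way to lymph nodes, and macrophages and neutrophils release them during inflammation.

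The libraries held 17469782 to 21092943 estimated reads. CTR replicate 1 stood apart: its TMM normalisation factor was 0.751 against 0.999 to 1.07 in the other 8 libraries, and its mean correlation with the other CTR libraries was 0.870, whereas no pair among the other 8 libraries correlated below 0.941. Results that rest on this library are therefore given with and without it. Itgax, which encodes the CD11c integrin used to define dendritic cells, was at 107 to 178 CPM (the count of a gene scaled to the TMM-adjusted size of its library) in every library, whereas Cd209a (DC-SIGN) was between 0 and 0.163 CPM. Summed neutrophil markers (12 genes) came to 30619 CPM in CTR replicate 1, 7899 and 10394 in the other CTR libraries, 8336 to 11811 in NE and 5330 to 5669 in TDE. Of these, 8 passed as lower and 0 as higher in TDE than in CTR cells, where 9.34% and 7.57% of all tested genes did. Lcn2 and Csf3r went the other way without passing (log2 fold change 1.07 and 0.27, adjusted p = 0.0687 and 0.121 by edgeR). Against NE, Lcn2 passed as higher (log2 fold change 1.53, adjusted p = 0.0219). S100a9 and Elane, lower against CTR, did not pass against NE (adjusted p = 0.348 and 0.0985). The 11 dendritic cell markers summed to 12764 CPM in CTR replicate 1 and to 4101 and 5056 in the other CTR libraries. They summed to 3898 to 4903 in NE and 2113 to 2236 in TDE, with 5 lower and 0 higher. Cd74 alone was at 8675 CPM in CTR replicate 1 and at 2632 and 2057 CPM in the other CTR libraries. It was at 1978 to 2626 CPM in NE and 843 to 890 CPM in TDE, and did not pass against NE (adjusted p = 0.115 by edgeR). Itgax, Flt3, Zbtb46, Batf3 and Irf4 did not pass against CTR (adjusted p = 0.0733, 0.934, 0.147, 0.121 and 0.116 by edgeR). The 11 macrophage markers summed to 12495 CPM in CTR replicate 1 and to 6280 and 6622 in the other CTR libraries. They summed to 6572 to 6997 in NE and 5471 to 5838 in TDE, with 3 lower and 1 higher (Adgre1). Apoe alone was at 7898 CPM in CTR replicate 1, 2435 and 2001 CPM in the other CTR libraries, 2179 to 3017 CPM in NE and 181 to 195 CPM in TDE. Adgre1 was at 206 CPM in CTR replicate 1, 447 and 480 CPM in the other CTR libraries, 405 to 487 CPM in NE and 2114 to 2312 CPM in TDE. In such sums the most abundant markers weigh most, so a sum does not give the level of each marker. The 8 eosinophil markers summed to 631 to 1717 CPM in CTR, 645 to 734 in NE and 118 to 146 in TDE, with all 8 lower. The 8 osteoclast markers summed to 380 to 500.3 CPM in CTR, 402 to 433 in NE and 463 to 488 in TDE, with 4 lower and 1 higher, and Calcr, which defines mature osteoclasts, was at 0 in every library. The 8 epithelial markers summed to 8.38 to 9.25 CPM in CTR, 11.04 to 12.8 in NE and 4.42 to 7.47 in TDE, with 1 lower and 0 higher and Krt5 at 0 in every library. The part of these cell markers in the results below was not tested, and in bulk RNA fewer cells of a type cannot be told apart from less RNA per cell.

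TDE cells held less mRNA of the elastase Mmp12, the collagenase Mmp13, the gelatinase Mmp9 and the inhibitor Timp2 than CTR cells, and more mRNA of the membrane protease Mmp14. By edgeR's quasi-likelihood test with Benjamini-Hochberg adjustment over all 15028 genes, 5 of the 10 members passed an adjusted p of 0.05 in TDE against CTR, beside 16.9% of all tested genes. Only Mmp14 was higher (background 7.57%), and 4 members were lower (background 9.34%). Against NE, 4 members passed (background 13.9%), with Mmp14 higher (background 6.73%) and Mmp12, Mmp13 and Mmp9 lower (background 7.21%). Between NE and CTR, 0 members and 0.0% of all genes passed. At an unadjusted p under 0.05, 1 member (Mmp13) and 487 genes differed there, and DESeq2 called 6 and limma voom 18 of all genes. The median log2 fold change of the 10 members was -0.50 in TDE against CTR, where that of all tested genes was -0.05, and -0.46 in TDE against NE, where that of all genes was -0.02. Both TDE comparisons use the same TDE libraries, so their values are given side by side and not as separate evidence.

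**Figure D1:**
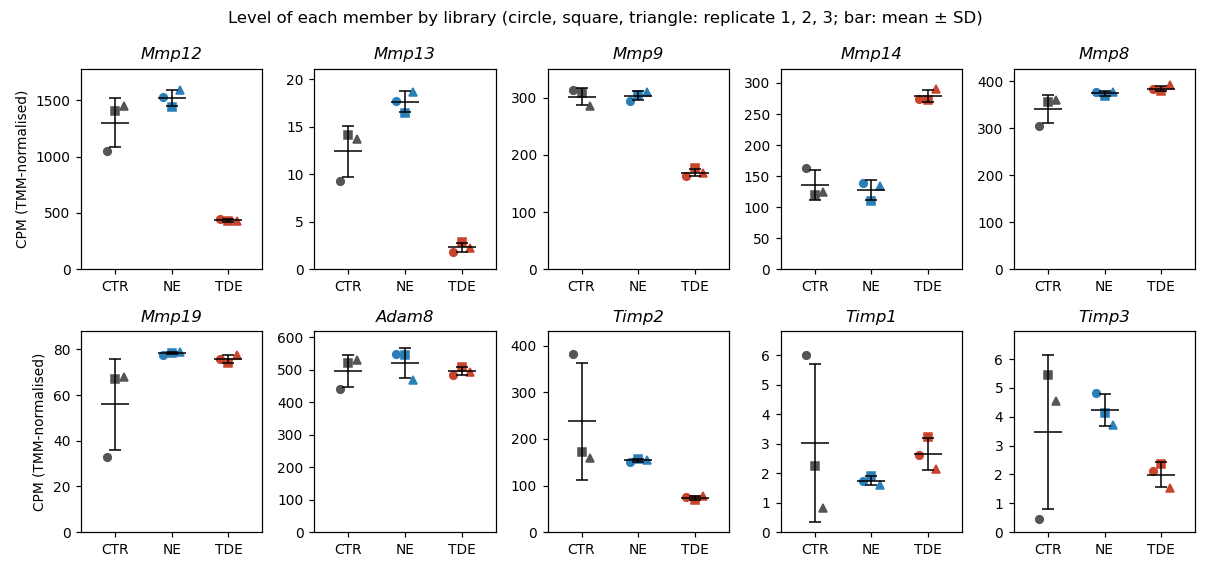
Level of each member in CPM (TMM-normalised, linear axis from 0) in each library of the CTR, NE and TDE groups, with circles, squares and triangles for replicates 1, 2 and 3 and bars for the mean ± SD. The TDE libraries sit below all others for Mmp12, Mmp13, Mmp9 and Timp2 and above all others for Mmp14, and CTR replicate 1 lies far from the other CTR libraries for Mmp19 and the 3 TIMPs.

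Mmp12, the macrophage elastase, was the MMP with the most transcript per length in CTR and NE cells. It measured 1051, 1402 and 1448 CPM in the CTR libraries, 1527, 1443 and 1588 CPM in NE and 446, 431 and 425 CPM in TDE. The TDE libraries lay close together and below every CTR and NE library. The level was 3.0-fold lower in TDE than in CTR (log2 fold change -1.58, SE 0.159, 95% interval -1.95 to -1.22, adjusted p = 0.00062 by edgeR). It was 3.50-fold lower than in NE (log2 fold change -1.81, SE 0.160, adjusted p = 0.000323 by edgeR).

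Mmp13, collagenase-3, cuts the fibrillar collagens and showed the largest fold change of the 10 members, at a much lower level. Its CPM was 9.32, 14.2 and 13.7 in CTR, 17.7, 16.5 and 18.7 in NE and 1.83, 2.84 and 2.25 in TDE. Behind the TDE values stood 33, 52 and 43 reads, against 147 to 376 reads in the other libraries. Mmp13 was 5.38-fold lower in TDE than in CTR (log2 fold change -2.43, SE 0.229, 95% interval -2.95 to -1.90, adjusted p = 0.000476 by edgeR) and 7.62-fold lower than in NE (log2 fold change -2.93, SE 0.232, adjusted p = 0.00018 by edgeR). The 3 NE libraries also lay above the 3 CTR libraries, but that difference had a log2 fold change of 0.50 with a 95% interval of 0.02 to 0.99 and did not pass (adjusted p = 0.659 by edgeR).

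Mmp9, gelatinase B, cuts denatured collagen and basement membrane collagen and is carried by neutrophils in their granules as well as made by macrophages and dendritic cells. It measured 313, 309 and 285 CPM in CTR, 295, 305 and 310 CPM in NE and 163, 176 and 168 CPM in TDE. The CTR and NE libraries overlapped and the TDE libraries lay below both. The log2 fold change was -0.84 (SE 0.115) in both TDE comparisons, with adjusted p = 0.00249 against CTR and 0.00227 against NE by edgeR. CTR replicate 1 had the highest summed neutrophil, macrophage and dendritic cell markers of all libraries. The part of these cells in the level of Mmp9 was not tested.

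Mmp14, the membrane-anchored collagenase that activates Mmp2 at the cell surface, moved the other way. It measured 163, 119 and 124 CPM in CTR, 140, 110 and 134 CPM in NE and 274, 273 and 290 CPM in TDE. Every TDE library lay above every other library. The level was 2.06-fold higher than in CTR (log2 fold change 1.05, SE 0.164, 95% interval 0.67 to 1.42, adjusted p = 0.00466 by edgeR) and 2.18-fold higher than in NE (log2 fold change 1.13, SE 0.165, adjusted p = 0.00324 by edgeR). The changes of Mmp12, Mmp13, Mmp9 and Mmp14 passed under all 17 alternative settings in both TDE comparisons, leaving out each library in turn included.

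Mmp8, the neutrophil collagenase, was at 306, 357 and 361 CPM in CTR, 377, 369 and 377 CPM in NE and 383, 379 and 391 CPM in TDE. The TDE libraries lay above all others, but by little, and the log2 fold change of 0.17 against CTR had a 95% interval of -0.11 to 0.45 (adjusted p = 0.333 by edgeR). Against NE it was 0.04, with an interval of -0.24 to 0.32. These intervals do not reach the size of change seen for Mmp12 or Mmp13.

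Mmp19, a secreted MMP that cuts basement membrane components, measured 33.0 CPM in CTR replicate 1 and 67.0 and 67.8 CPM in the other CTR libraries. It was at 77.8, 78.5 and 79.0 CPM in NE and at 75.6, 74.2 and 77.5 CPM in TDE. Only CTR replicate 1 was clearly low. The log2 fold change in TDE against CTR was 0.44 (95% interval -0.13 to 1.0, adjusted p = 0.238 by edgeR) and became 0.16 without that library (adjusted p = 0.099). Against NE it was -0.05 (95% interval -0.62 to 0.52). Mmp19 passed under 1 of 17 alternative settings against CTR and 0 of 17 against NE.

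Adam8, a membrane protease of myeloid cells that sheds surface proteins, measured 441, 520 and 532 CPM in CTR, 550, 544 and 469 CPM in NE and 484, 509 and 494 CPM in TDE. The 3 groups overlapped. The log2 fold change was -0.01 against CTR (95% interval -0.32 to 0.31) and -0.07 against NE (95% interval -0.38 to 0.24). Adam8 passed under 0 of 17 alternative settings against CTR and 1 of 17 against NE.

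**Figure D2:**
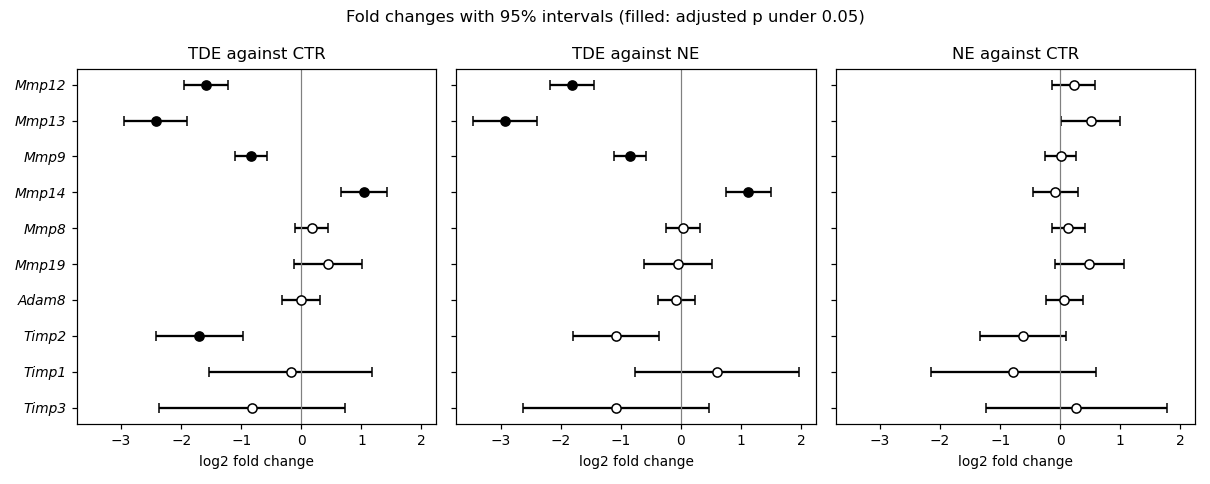
Log2 fold change of each member (x axis) with its 95% interval in TDE against CTR, TDE against NE and NE against CTR, where filled points have an adjusted p under 0.05. Mmp12, Mmp13 and Mmp9 lie left of 0 and Mmp14 right of 0 in both TDE panels, and no member is filled in NE against CTR.

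Among the inhibitors, Timp2 carried most of the transcript and was lower in TDE than in CTR cells. It was at 383 CPM in CTR replicate 1 and 171 and 160 CPM in the other CTR libraries, at 151, 157 and 155 CPM in NE and at 74.5, 68.2 and 77.7 CPM in TDE. All TDE libraries lay below all others, and CTR replicate 1 lay far above the rest. The level was 3.24-fold lower in TDE than in CTR (log2 fold change -1.70, SE 0.319, 95% interval -2.43 to -0.97, adjusted p = 0.0094 by edgeR), and the log2 fold change was -1.18 without CTR replicate 1. With only the 6 libraries of the 2 groups in the fit, the adjusted p was 0.0501.

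Against NE, the log2 fold change of Timp2 was -1.07 (SE 0.314, 95% interval -1.79 to -0.36), which missed the threshold (adjusted p = 0.057 by edgeR). That fit shares 1 estimate of spread over all groups, and without CTR replicate 1, which is in neither group, the log2 fold change was -1.08 with an adjusted p of 6.15e-06. Without CTR replicate 3 the adjusted p was 0.0356. The threshold was passed under 6 of 17 alternatives in this comparison.

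Timp3, which binds to the matrix and also blocks ADAM proteases, was low in all groups. It measured 0.44, 5.46 and 4.54 CPM in CTR, 4.83, 4.12 and 3.73 CPM in NE and 2.11, 2.35 and 1.52 CPM in TDE. CTR replicate 1, with 7 reads, lay below the TDE libraries, and the other CTR libraries and all NE libraries lay above them. In the main fit of all 9 libraries Timp3 did not pass. Its log2 fold change was -0.82 against CTR (95% interval -2.36 to 0.73, adjusted p = 0.404 by edgeR) and -1.09 against NE (adjusted p = 0.379). Without CTR replicate 1 the log2 fold changes were -1.34 (adjusted p = 0.00163) and -1.09 (adjusted p = 0.00268). Timp3 passed under 2 of 16 alternative settings against CTR and 3 of 16 against NE. Of these, only the fit without CTR replicate 1 left out a single library.

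Timp1, a secreted inhibitor that also binds the precursor of Mmp9, had 16 to 95 reads per library. It measured 6.02, 2.26 and 0.81 CPM in CTR, 1.75, 1.90 and 1.59 CPM in NE and 2.605, 3.22 and 2.14 CPM in TDE. The CTR libraries alone spanned more than all others. The log2 fold change against CTR was -0.18 (95% interval -1.53 to 1.17) and turned to 0.77 without CTR replicate 1 (adjusted p = 0.161 by edgeR). Against NE it was 0.60 (95% interval -0.77 to 1.97, adjusted p = 0.624).

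**Figure D3:**
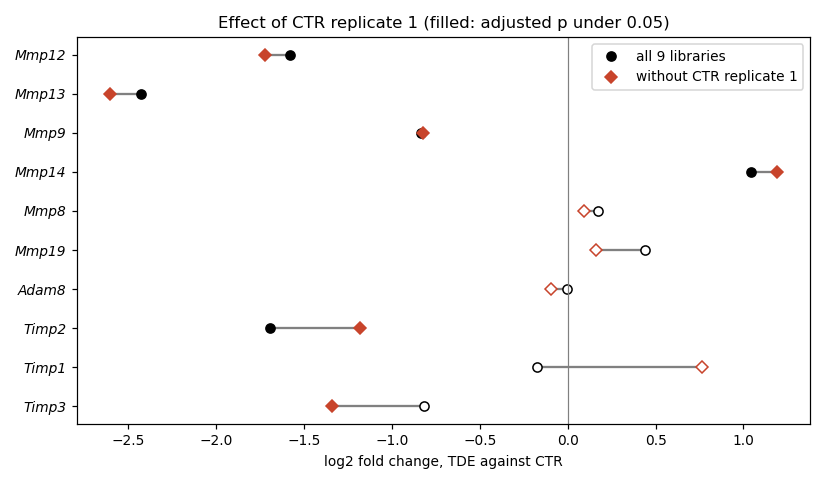
Log2 fold change of each member in TDE against CTR (x axis) from all 9 libraries (circles) and without CTR replicate 1 (diamonds), with filled symbols for an adjusted p under 0.05. The 3 TIMPs move most, Timp1 crosses 0 and Timp3 becomes filled, while Mmp12, Mmp13, Mmp9 and Mmp14 stay filled.

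Libraries of the 2 groups did not overlap for 7 of 10 members in TDE against CTR, where 44.0% of all tested genes did not overlap, and for 9 of 10 in TDE against NE, where 54.5% did not. Adam8 was the member that overlapped in both. Apart from the 5 genes called in TDE against CTR, the members that did not overlap there were Mmp8 and Mmp19.

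Levels of different genes were compared per gene length, as RPKM, which is the CPM divided by the gene length in kilobases. The deposited lengths of Mmp12 and Mmp14 are 3607 and 2596 bases, whereas their GENCODE exons together cover 7237 and 5960 bases. Sums, shares, orders and ratios across genes therefore depend on the lengths used, and only the deposited lengths were used. The 6 MMPs summed to 669 ± 67.3 RPKM (SD, n = 3) in CTR, 750 ± 28.1 in NE and 463 ± 4.07 in TDE. Without Mmp12, the other 5 MMPs summed to 309 ± 7.52, 329 ± 8.09 and 342 ± 6.29 RPKM in CTR, NE and TDE. Within these 5, opposite differences offset each other. Mean RPKM in CTR and TDE was 95.1 and 53.2 for Mmp9 and 4.64 and 0.862 for Mmp13. It was 52.1 and 107 for Mmp14, 141 and 159 for Mmp8 and 16.4 and 22.3 for Mmp19. The sum was thus lower in TDE only with Mmp12 included. The share of Mmp12 in the MMP transcript was 53.6 ± 3.82% in CTR, 56.1 ± 0.597% in NE and 26.0 ± 0.815% in TDE.

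The order of the MMPs also differed. In TDE cells Mmp8 (156 to 161 RPKM) came first, then Mmp12 (118 to 124 RPKM) and Mmp14 (105 to 112 RPKM), then Mmp9 (51.4 to 55.5 RPKM), Mmp19 (21.8 to 22.8 RPKM) and Mmp13 (0.684 to 1.06 RPKM). With the deposited lengths, none of these neighbours overlapped. In NE cells Mmp12 (400 to 440 RPKM) came before Mmp8 (152 to 156 RPKM), Mmp9 (92.9 to 97.7 RPKM), Mmp14 (42.3 to 53.8 RPKM), Mmp19 (22.9 to 23.2 RPKM) and Mmp13 (6.17 to 6.99 RPKM). With the deposited lengths, Mmp14 thus stood above Mmp9 in TDE and below it in NE. Its place above Mmp9 rests on lengths of 2596 bases for Mmp14 and 3175 for Mmp9, where GENCODE exons cover 5960 and 3539. The ratio of Mmp12 to Mmp14 transcript was 7.18 ± 2.19 in CTR, 8.61 ± 0.801 in NE and 1.12 ± 0.0618 in TDE (SD, n = 3).

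The 3 TIMPs summed to 68.5 ± 36.5 RPKM in CTR, where replicate 1 alone reached 111, to 44.7 ± 0.840 in NE and to 23.4 ± 0.587 in TDE. Timp2 made up 93.8 ± 1.75% of this sum in CTR, 93.3 ± 0.562% in NE and 84.5 ± 3.54% in TDE. The sums of proteases and of inhibitors were both lowest in TDE, and the ratio of the 6 MMPs to the 3 TIMPs was 11.8 ± 5.62 in CTR, 16.8 ± 0.871 in NE and 19.8 ± 0.378 in TDE. The CTR ratios ran from 5.35 to 15.9, so that the CTR spread was wider than the gap between NE and TDE. The pair of Mmp14 and Timp2 separated further: Mmp14 transcript was 0.606 to 1.11 times that of Timp2 in CTR, 0.996 to 1.32 times in NE and 5.25 to 5.72 times in TDE. With 3 libraries a group, an exact permutation test of such a ratio cannot go below p = 0.1, and none was run. The size of these ratios depends on the gene lengths used. For the pair of Mmp14 and Timp2, the lengths do not alter how the groups compare. These are ratios of mRNA and do not measure protein or enzyme activity.

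**Figure D4:**
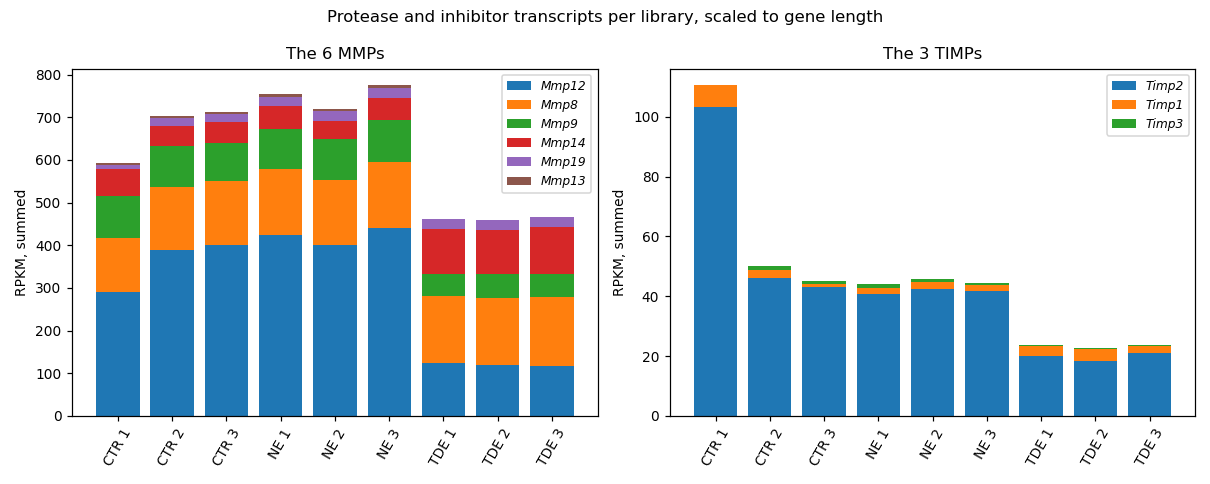
Stacked transcript levels in RPKM (linear axis from 0) of the 6 MMPs (left) and the 3 TIMPs (right) in each of the 9 libraries. The MMP stack is shorter in TDE mainly in its Mmp12 part, the Mmp14 part is taller, and the TIMP stack is shorter in TDE than in NE, with CTR replicate 1 above all others.

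Mmp12, Mmp13 and Mmp8 lie in a cluster of 10 MMP genes on chromosome 9 of the mouse genome (GRCm38). Mmp13 spans 7272514 to 7283331, Mmp12 spans 7344381 to 7369499 and Mmp8 spans 7558456 to 7568485, all on the plus strand. Across the cluster, Mmp13 and Mmp12 fell with tumor exosomes whereas Mmp8 did not pass. The neighbours Mmp3 and Mmp27 were near 1 CPM and did not pass either (adjusted p = 0.174 and 0.353 against CTR by edgeR). Mmp1b, Mmp1a, Mmp10, Mmp20 and Mmp7 had at most 4 reads in any library and were not tested. The last exons of Mmp12 overlap those of Mmp1b on the other strand. The use of strand in counting is not stated, but Mmp1b itself received at most 1 read.

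**Figure D5:**
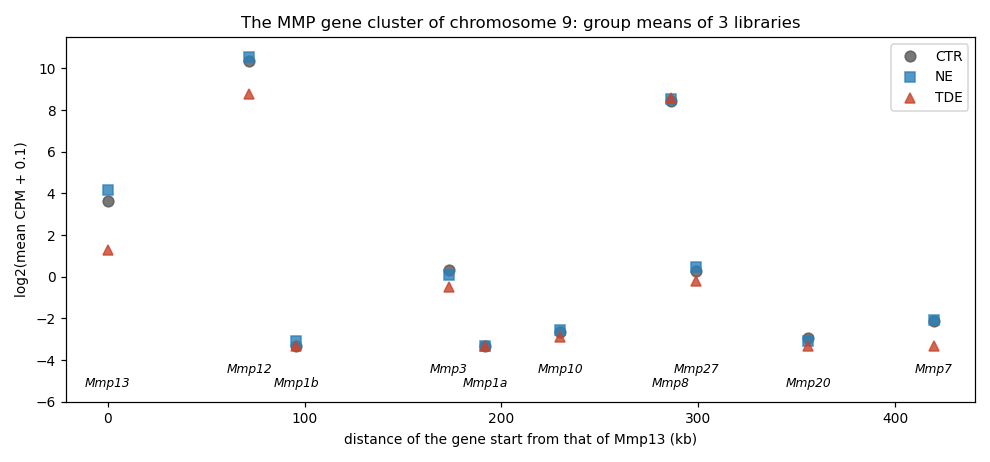
Group means of the 10 MMP genes of the chromosome 9 cluster, as log2(mean CPM + 0.1) of 3 libraries each (y axis), against the distance of each gene start from that of Mmp13 in kb (x axis). TDE (triangles) lies below CTR and NE at Mmp13 and Mmp12, the groups coincide at Mmp8, and the untested genes lie near the bottom of the scale.

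The sequences before the start sites of these cluster genes and of Mmp14 are printed because Mmp13 and Mmp12 had the largest falls among the 6 member MMPs, Mmp8 is their neighbour that did not pass and Mmp14 is the member that rose. RefSeq promoter windows (GRCm38.p6, 250 bases before to 50 after a start site) were at hand for 8 of the 10 members, and Mmp9 and Mmp19 had none. Each line gives the 150 bases before a start site in the direction of transcription, and the motifs found are in capitals.
Mmp13, chr9:7272364-7272513, plus strand: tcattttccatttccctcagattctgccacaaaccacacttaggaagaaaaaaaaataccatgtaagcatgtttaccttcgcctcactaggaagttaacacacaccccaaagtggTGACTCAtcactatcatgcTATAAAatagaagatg
Mmp12, first start, chr9:7344247-7344396, plus strand: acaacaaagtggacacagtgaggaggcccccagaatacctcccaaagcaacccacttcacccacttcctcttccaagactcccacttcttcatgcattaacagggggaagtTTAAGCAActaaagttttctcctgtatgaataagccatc
Mmp12, second start, chr9:7347224-7347373, plus strand: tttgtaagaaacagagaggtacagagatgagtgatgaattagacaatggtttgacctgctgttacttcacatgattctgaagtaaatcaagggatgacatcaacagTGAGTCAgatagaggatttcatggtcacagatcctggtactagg
Mmp8, chr9:7558279-7558428, plus strand: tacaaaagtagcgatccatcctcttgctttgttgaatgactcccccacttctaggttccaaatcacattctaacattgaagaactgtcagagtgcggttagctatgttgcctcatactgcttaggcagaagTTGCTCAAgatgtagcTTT
Mmp14, chr14:54431448-54431597, plus strand: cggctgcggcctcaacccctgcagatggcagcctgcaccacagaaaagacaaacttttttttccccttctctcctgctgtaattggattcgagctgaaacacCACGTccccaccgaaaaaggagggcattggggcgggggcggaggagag

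The AP-1 motif TGAGTCA, searched on both strands, was in 5.2% of all 32851 RefSeq windows of the same length. It was found before Mmp13 (on the minus strand, first base at -35 from the start site) and before the second start of Mmp12 (at -44). The TATA box TATAAA (13.6% of windows) was found before Mmp13 at -16, after the second start of Mmp12 at position 5 and across the start site of Mmp8, where the printed stretch holds only its beginning. The C/EBP motif TTGCNNAA (10.8% of windows) was found before the first start of Mmp12, before Mmp8 and before Adam8. The hypoxia response core ACGTG (19.6% of windows) was found before Mmp14 at -48 and before Timp1 at -82. The windows of Timp2 and Timp3 held none of the 6 motifs searched, and the NF-kB (1.63% of windows) and PPAR-type direct repeat (DR1) motifs (0.0396% of windows) were in no member's window. No matches overlapped. A match is a run of letters, and no binding was measured here.

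The remaining members lie on other chromosomes of GRCm38. Mmp9 spans 164940780 to 164955850 of chromosome 2 on the plus strand, Mmp14 spans 54431612 to 54445364 of chromosome 14 on the plus strand, and Mmp19 spans 128790910 to 128800824 of chromosome 10 on the plus strand. Adam8 lies on the minus strand of chromosome 7 at 139978932 to 139992562, Timp1 on the plus strand of chromosome X at 20870166 to 20874735, Timp2 on the minus strand of chromosome 11 at 118301069 to 118355740, and Timp3 on the plus strand of chromosome 10 at 86300372 to 86349506. Exons of Mmp19, Adam8 and Timp3 overlap exons of genes on the other strand, so a share of their reads could belong to these.

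Of 18 other genes of the MMP and TIMP families, 6 were tested in both TDE comparisons. In TDE against CTR, 2 rose, 2 fell and 2 did not pass, and in TDE against NE, 2 rose, 1 fell and 3 did not pass. Their median log2 fold change was -0.70 and -0.68 in these comparisons. Mmp2, gelatinase A, whose precursor Mmp14 activates together with Timp2, was at 3.36, 4.56 and 4.24 CPM in CTR, 4.72, 5.75 and 4.38 CPM in NE and 19.0, 15.8 and 18.2 CPM in TDE. The TDE libraries lay above all others, with a log2 fold change of 2.12 against CTR (SE 0.185, adjusted p = 0.000337 by edgeR) and 1.84 against NE (adjusted p = 0.000525). Mmp25, a lipid-anchored MMP of leukocytes, was at 119, 158 and 159 CPM in CTR, 157, 164 and 139 CPM in NE and 59.6, 66.9 and 60.3 CPM in TDE. Its log2 fold change was -1.22 against CTR (SE 0.154, adjusted p = 0.00166 by edgeR) and -1.30 against NE. Mmp23 was at 12.4 CPM in CTR replicate 1, 2.94 and 2.12 CPM in the other CTR libraries, 2.12 to 3.23 CPM in NE and 0.499, 0.655 and 0.418 CPM in TDE, or 8 to 12 reads. Its log2 fold change against CTR was -3.45 (adjusted p = 0.0132 by edgeR) and -2.27 without CTR replicate 1 (adjusted p = 0.00082). It lost this call without any single TDE library (adjusted p = 0.0524 to 0.0666). Against NE the log2 fold change of Mmp23 was -2.25, which did not pass (adjusted p = 0.069). Mmp28, named after its values were seen because it was the other gene that rose, had 4.65 to 8.43 reads in CTR and 16.1 to 26.2 in TDE.

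Summed fibroblast markers are given beside Mmp2, since fibroblasts are a known source of it. The 10 markers summed to 6.64 to 7.86 CPM in CTR, 6.51 to 7.96 CPM in NE and 10.8 to 11.9 CPM in TDE. Of the 6 that were tested, 2 rose in TDE against CTR (Dcn and Pdgfrb). The collagen genes Col1a1, Col1a2 and Col3a1 had log2 fold changes of -0.79, -0.83 and 0.41 and did not pass (adjusted p = 0.126, 0.2 and 0.535 by edgeR). Thy1, at 0.76, did not pass either (adjusted p = 0.303). The part of fibroblasts in the level of Mmp2 was not tested.

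Among 17 other genes of the ADAM and ADAMTS families, 10 were tested. Against CTR, 0 rose, 1 fell and 9 did not pass, and against NE, 0 rose and 2 fell. Adam11 was at 20.3, 24.6 and 22.9 CPM in CTR, 21.2, 23.0 and 20.0 CPM in NE and 9.86, 11.2 and 8.83 CPM in TDE. Its log2 fold change against CTR was -1.18 (SE 0.145, adjusted p = 0.00148 by edgeR). The median log2 fold change of the 10 genes was -0.05 against CTR and -0.26 against NE, where that of all tested genes was -0.05 and -0.02.

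A list of 18 genes that activate MMPs, hold them at the cell surface, block them or clear them gave 15 tested genes. Against CTR, 3 rose, 3 fell and 9 did not pass, and against NE, 5 rose, 4 fell and 6 did not pass. The median log2 fold change was 0.29 and 0.32. Plat, tissue plasminogen activator, was at 0.254, 2.48 and 1.31 CPM in CTR and 7.48, 6.55 and 7.73 CPM in TDE, with a log2 fold change of 2.39. Plaur, the urokinase receptor, fell from 84.3, 104 and 91.1 CPM in CTR to 53.8, 53.8 and 54.0 CPM in TDE (log2 fold change -0.79, adjusted p = 0.00655 by edgeR). Reck, a membrane-anchored MMP inhibitor, had a log2 fold change of -1.15, the protease inhibitor Serpine2 of -0.91 and the heparan sulfate proteoglycan Sdc4 of 0.81. Against NE, Serpine2 did not pass (log2 fold change -0.69, adjusted p = 0.0538 by edgeR). Plat, Reck and Sdc4 passed there (adjusted p = 0.0443, 0.0137 and 0.00592).

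The call of Plaur against CTR held without any single library but was lost with scaling by library totals alone (adjusted p = 0.0532 by edgeR). Those of Plat, Reck, Sdc4 and Serpine2 were each lost without some single libraries. Without CTR replicate 1 they passed, with log2 fold changes of 1.91, -1.40, 1.02 and -0.85 (adjusted p = 0.000821, 0.000414, 6.84e-05 and 0.00757 by edgeR). Plat was lost without any 1 TDE library and without NE replicate 1 or 2 (adjusted p = 0.0545 to 0.0930), and its log2 fold change was 3.17 without CTR replicate 2. Reck was lost without any 1 TDE library, CTR replicate 2 and NE replicate 1 or 2 (adjusted p = 0.0532 to 0.115). Sdc4 was lost without any 1 TDE library or CTR replicate 2 (adjusted p = 0.0539 to 0.0712). Serpine2 was lost without TDE replicate 1 or 3 (adjusted p = 0.0872 and 0.0839).

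Of 10 other proteases and glycosidases that degrade matrix, all were tested, and against CTR 1 rose, 6 fell and 3 did not pass. Against NE, 1 rose, 3 fell and 6 did not pass. The median log2 fold change was -1.09 and -0.79. The neutrophil serine proteases Elane, Prtn3 and Ctsg had log2 fold changes of -2.18, -1.94 and -1.61 against CTR. Against NE these were -1.41, -0.98 and -1.33, and only Ctsg passed (adjusted p = 0.0985, 0.318 and 0.0266 by edgeR). Elane is also on the list of neutrophil markers, and CTR replicate 1 held 93.7 CPM of it, against 22.3 and 32.7 CPM in the other CTR libraries and 9.75 to 12.3 CPM in TDE. Without CTR replicate 1 the log2 fold change was -1.34 for Elane, -0.86 for Prtn3 and -1.24 for Ctsg (adjusted p = 0.00156, 0.00467 and 0.0026 by edgeR). Without any 1 TDE library the call was lost for Elane (adjusted p = 0.0746 to 0.0921) and Prtn3 (adjusted p = 0.140 to 0.155), and without TDE replicate 1 or 3 for Ctsg (adjusted p = 0.0549 and 0.0603). Prtn3 was also lost without any 1 NE library (adjusted p = 0.0742 to 0.0820). The heparanase gene Hpse rose from 34.5, 60.5 and 60.2 CPM in CTR to 97.4, 98.2 and 96.0 CPM in TDE (log2 fold change 0.91, adjusted p = 0.0249 by edgeR). That call was lost without any 1 TDE library or NE replicate 2 (adjusted p = 0.0517 to 0.0874). Without CTR replicate 1 the log2 fold change of Hpse was 0.68 (adjusted p = 0.000771).

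Of 18 genes for matrix proteins that MMPs cut, 15 were tested, and 2 rose, 2 fell and 11 did not pass in each TDE comparison. The median log2 fold change was -0.59 against CTR and -0.47 against NE. Spp1, which encodes osteopontin, fell from 211, 254 and 236 CPM in CTR and 268, 239 and 327 CPM in NE to 70.2, 56.4 and 57.4 CPM in TDE (log2 fold change -1.93 against CTR, SE 0.172, adjusted p = 0.000367 by edgeR). Col5a1, a fibril-forming collagen chain, rose from 1.46, 2.35 and 2.57 CPM in CTR to 8.81, 7.37 and 10.2 CPM in TDE (log2 fold change 2.04, adjusted p = 0.00224 by edgeR). Dcn, which encodes the small proteoglycan decorin, was at 0.127, 0.587 and 0.303 CPM in CTR and 3.49, 3.44 and 3.08 CPM in TDE. Behind these stood 2, 13 and 6 reads in CTR, the first below the floor of 3 counts, and 63, 63 and 59 in TDE. Dcn is also on the list of fibroblast markers. Its log2 fold change was 3.23 (adjusted p = 0.00339 by edgeR) and 3.89 without CTR replicate 2. Fn1, which encodes fibronectin, had a log2 fold change of -1.46 against CTR. Its call was lost without any 1 TDE library, CTR replicate 2 or NE replicate 2 (adjusted p = 0.0511 to 0.109 by edgeR). Without CTR replicate 1 the log2 fold change of Fn1 was -1.74 (adjusted p = 0.00115). In NE against CTR, 0 genes of these 5 lists passed. Of all tested genes, 7.57% rose and 9.34% fell against CTR, and 6.73% rose and 7.21% fell against NE. Their median log2 fold change was -0.05 and -0.02. The lists are described by counts alone, and no list was tested as a set.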

How the data were processed

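The authors aligned RNA-seq reads with TopHat2 2.1.1 and deposited 1 table of estimated counts per gene, not normalised, for 9 libraries (per the file headers and the submitters' processing notes, which also name DESeq2 1.24.0 and R 3.3.1). The counter and its use of strand are not given in the sources used here. Of 57238 entries, 1702 are assembled transcripts without a gene name. All 55536 Ensembl identifiers matched GENCODE vM21, which gave positions on GRCm38.

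Estimated counts were rounded and fitted with edgeR 4.0.16 (R 4.3.3): TMM factors, filterByExpr, 1 mean per group over all 9 libraries, quasi-likelihood F tests and Benjamini-Hochberg adjustment at 0.05 over 15028 genes. The SE is the log2 fold change divided by the root of F. RPKM used the deposited gene lengths. The floor of 3 counts is 0.135 to 0.190 CPM per library. Scripts were tested on simulated counts. Alternatives used DESeq2 1.42.0, other scaling, other filters, fewer libraries and a replicate block, and, added after the data were seen, limma 3.58.1 (voom with sample quality weights).

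The members and gene lists were chosen with earlier results of these data known. Named beyond the members were, per list, genes with an adjusted p under 0.05 and a mean of at least 1 CPM, up to the 3 highest and the 3 lowest fold changes in TDE against CTR. Protein sequences were not used here. Values of 1 gene that this rule names are not reported here, and it stays in the counts of its list. Other gene lists were cell type markers for neutrophils, macrophages, dendritic cells, osteoclasts, eosinophils, fibroblasts and epithelial cells.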

Additional observations from a re-analysis of the deposited data

How the results depend on the processing

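Over 17 alternatives and 3 comparisons, 469 of 507 values of members kept their direction and their side of the threshold, 13 passed only under the alternative, 1 no longer passed (Timp2 in TDE against CTR, -1.72 with the 6 libraries of the pair) and 24 changed sign, of which 0 were called in both. The sign changes among the proteases were Mmp9 in NE against CTR (-0.0142 with DESeq2, -0.0144 with median-ratio factors, -0.0153 with voom, -0.0282 to 0.0309 without single libraries), Adam8 in TDE against CTR (0.0424 with library totals alone, 0.0393 with no filter, -0.0949 to 0.0503 without single libraries), Adam8 in NE against CTR (-0.0148 to 0.124 without single libraries), Mmp8 in TDE against NE (-0.0217 with library totals), Mmp14 in NE against CTR (0.0775 with library totals, 0.0430 with voom, -0.158 to 0.0726 without single libraries). Among the inhibitors they were Timp1 in TDE against CTR (0.0398 with library totals, 0.0789 with the block, 0.42 with voom, -0.62 to 0.77 without single libraries), Timp1 in NE against CTR (-1.22 to 0.17 without single libraries) and Timp3 in NE against CTR (-0.24 with voom, -0.25 to 0.75 without single libraries). Timp3 gave no value with a minimum of 10 counts in every library.

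All genes called in TDE against CTR (2541) came to 4018 with DESeq2, 1152 with the 6 libraries of the pair, 7886 with voom and 1103 to 5263 without single libraries. For TDE against NE (2095) they came to 6072, 8311 with voom and 970 to 6223. For NE against CTR (0) they came to 6 with DESeq2, 18 with voom and 0 to 3. Voom called 7 members in TDE against NE. The deviations of same-numbered libraries from their group means correlated at -0.056 to 0.072 between TDE and CTR and -0.071 to 0.027 between TDE and NE. Between NE and CTR they correlated at -0.370, 0.185 and -0.585. With 3 libraries a group and CTR replicate 1 standing apart, these values cannot show whether replicate numbers pair the samples. The replicate block called 1285 and 1175 genes in the TDE comparisons, with 5 and 4 members as before. The cause of these shifts was not tested. With 16 to 95 reads of Timp1 and 7 to 121 of Timp3 per library, changes of these genes are poorly bounded.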
